A study of Homo sapiens with 8 samples.

Results

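Matrix metalloproteinases (MMPs) and their tissue inhibitors (TIMPs) were followed in SK-Hep1 cells through 9 genes, TIMP1, TIMP2, TIMP3, MMP1, MMP2, MMP3, MMP9, MMP14 and MMP15, out of 28279 genes in the deposited count table. They were chosen by family membership and selected on the levels in resistant against sensitive control cells, where TIMP3 was nearly lost, so the values that set resistant against sensitive control cells are given as a description without a test. SK-Hep1 cells are an established line from a human liver cancer, sorafenib is a kinase inhibitor used against hepatocellular carcinoma, and COL6A3 encodes the collagen VI chain whose C-terminal fragment is endotrophin. The 8 poly(A) RNA-seq libraries form 4 groups of 2. These are sorafenib-resistant (SR) cells with COL6A3 siRNA and recombinant human endotrophin (siCOL6A3 + rhETP), SR cells with COL6A3 siRNA alone (siCOL6A3), SR cells with control siRNA (siCtrl) and sorafenib-sensitive (SS) cells with control siRNA. All groups, the sensitive cells included, were thus transfected with an siRNA, and all 3 resistant groups carry the resistant background. The labels name 1 sensitive and 1 resistant line, so resistance and any other difference between these populations cannot be told apart. The sources used here do not say whether sorafenib was present at harvest, or at which dose endotrophin was given.

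MMPs are zinc-dependent proteases that are made as inactive precursors and, once activated, cut matrix proteins and other extracellular substrates. TIMPs are secreted proteins that block the active site of these enzymes. MMP14 and MMP15 stay anchored in the cell membrane, while MMP1, MMP2, MMP3 and MMP9 are secreted, and TIMP2 can also act with MMP14 at the cell surface in the activation of the MMP2 precursor. TIMP3 differs from its relatives in that it binds the matrix and also inhibits several ADAM and ADAMTS proteases.

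Library totals ran from 30461668 to 44116043 counts, and 15301 to 16594 genes were detected per library. Of the 9 genes, 9 passed the filter on low counts, although MMP1 did so through the resistant groups and MMP3 with no library above 55 counts. Levels are given per library in CPM (counts scaled to library size with TMM factors), with the libraries of a group in the order of their replicate numbers, and differences as log2 fold changes with SE from edgeR. Genes said to have risen or fallen had a p below 0.05 in the quasi-likelihood test of edgeR after Benjamini-Hochberg adjustment across the 15684 genes kept. COL6A3 itself was at 66.0 and 71.3 CPM in SR siCOL6A3 + rhETP, 42.7 and 45.0 CPM in SR siCOL6A3, 135.0 and 136 CPM in SR siCtrl and 17.8 and 19.7 CPM in SS siCtrl. The siRNA groups thus held less COL6A3 mRNA than the resistant control, as their labels say. COL6A3 was also higher with endotrophin than with siRNA alone (0.65, SE 0.11; edgeR adjusted p = 0.000739), so these groups differ in the level of the silenced gene as well as in endotrophin, and the part of that in the endotrophin comparison cannot be told apart. As to cell identity, 3 of 7 hepatocyte markers (ALB, APOA1 and TTR) and 1 of 7 endothelial markers (CLDN5) had 0 counts in all 8 libraries. In each of these lists 2 genes passed the filter on low counts, so neither set of transcripts was absent. All 6 mesenchymal markers passed that filter, and 1 of them, VIM, had 108936 to 174379 counts. A single marker does not give the identity of the cells, and the sum of each list is given below. In bulk RNA, fewer cells that express a gene and less RNA per cell cannot be told apart.

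The promoters of TIMP3, MMP15 and MMP14 are shown as RefSeq gives them (GRCh38.p14, 250 bases before to 50 after the gene start), because these are the members with a promoter in the table that were called in a comparison among resistant groups. Capitals mark the GC box GGGCGG on either strand, the recognition sequence of the Sp1 family of transcription factors.
TIMP3, chr22:32801455-32801754 (+ strand): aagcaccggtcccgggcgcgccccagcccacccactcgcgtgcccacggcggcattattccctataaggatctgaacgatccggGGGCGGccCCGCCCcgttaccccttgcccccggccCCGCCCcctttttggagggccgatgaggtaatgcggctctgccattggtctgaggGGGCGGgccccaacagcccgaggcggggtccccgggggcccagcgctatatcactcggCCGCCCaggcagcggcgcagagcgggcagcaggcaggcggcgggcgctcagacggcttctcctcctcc
MMP15, chr16:58025504-58025803 (+ strand): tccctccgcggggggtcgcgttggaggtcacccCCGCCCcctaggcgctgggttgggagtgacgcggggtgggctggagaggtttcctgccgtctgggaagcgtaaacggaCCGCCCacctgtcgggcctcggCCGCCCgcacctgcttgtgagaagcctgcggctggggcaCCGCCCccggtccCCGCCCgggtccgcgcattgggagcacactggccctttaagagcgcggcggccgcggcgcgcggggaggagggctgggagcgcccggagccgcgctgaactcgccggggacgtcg
MMP14, chr14:22836335-22836634 (+ strand): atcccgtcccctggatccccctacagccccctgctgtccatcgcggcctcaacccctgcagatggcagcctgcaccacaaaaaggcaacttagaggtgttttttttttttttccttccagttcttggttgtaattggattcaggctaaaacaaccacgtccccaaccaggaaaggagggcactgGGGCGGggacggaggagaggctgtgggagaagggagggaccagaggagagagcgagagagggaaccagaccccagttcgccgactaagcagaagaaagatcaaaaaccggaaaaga
TIMP3 and MMP15 each held 5 GC boxes, and at least 5 were found in 5.14% of 35116 promoters of this length. MMP14 held 1, and 45.0% of promoters held at least 1. The observed over expected frequency of CpG was 0.788 for TIMP3, 0.922 for MMP15 and 0.442 for MMP14, with a median of 0.579 over all promoters. No TGANTCA, a consensus form of the AP-1 site, and no TATAAA was present on either strand in these windows or that of TIMP1. Of all promoters, 7.71% and 11.5% held them. Variant forms of these sites were not searched for, so their absence was not shown. The table had promoters for 4 of the 9 genes. The remaining one, TIMP1, held 2 GC boxes with a CpG frequency of 0.518, below the median. A link between these promoter features and the levels of the genes was not tested.

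TIMP3, the matrix-bound inhibitor (gene identifier 7078, chromosome 22, 32801705 to 32863041), had the widest span of the 3 TIMPs as a fold, though not in CPM. It was at 18.8 and 20.1 CPM in SR siCOL6A3 + rhETP, 16.8 and 14.4 CPM in SR siCOL6A3, 3.56 and 5.21 CPM in SR siCtrl and 213 and 216 CPM in SS siCtrl. No 2 of these groups overlapped. Among all genes tested, libraries did not overlap for 58.3% between siCOL6A3 and SR siCtrl and 52.0% between the endotrophin group and siCOL6A3. The share was 57.3% between the endotrophin group and SR siCtrl and 53.0% between SR siCtrl and SS siCtrl. It was not counted for the siRNA groups against SS siCtrl. The same shares apply to each gene below. The resistant control mean was 2.05% of the sensitive mean (log2 fold change -5.61, SE 0.17), the value for which the gene was chosen. Within resistant cells TIMP3 rose with the COL6A3 siRNA, 3.56-fold in mean CPM (log2 fold change 1.83, SE 0.16; edgeR adjusted p = 3.05e-08), which brought it to 7.28% of the sensitive mean. With endotrophin added it was at 9.07% of the sensitive mean; the difference from siRNA alone was 0.32 (SE 0.14) and was not called (edgeR adjusted p = 0.194), while against the resistant control TIMP3 was higher by 2.15 (SE 0.16; edgeR adjusted p = 2.3e-09). The resistant control libraries held 110 and 165 counts of it, so the low end rests on measurable reads. Both tests against the resistant control use these libraries, for whose low TIMP3 level the gene was chosen. Their p-values do not allow for that choice. TIMP3 lies within the SYN3 gene on the opposite strand, but shares no exonic base with it, and SYN3 had at most 1 count in any library.

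TIMP2, the inhibitor that also takes part in MMP2 activation (gene identifier 7077, chromosome 17, 78852977 to 78925387), moved the other way. It had 523 and 467 CPM in SR siCOL6A3 + rhETP, 663 and 668 CPM in SR siCOL6A3, 1059.6 and 1116 CPM in SR siCtrl and 674 and 781 CPM in SS siCtrl. The resistant control was the highest group and the endotrophin group the lowest, with no overlap between any pair of groups. For the pairs counted above, 52.0% to 58.3% of all genes did not overlap either. TIMP2 fell with the siRNA (log2 fold change -0.71, SE 0.073; edgeR adjusted p = 3.14e-07) and was lower again with endotrophin than with siRNA alone (-0.43, SE 0.073; edgeR adjusted p = 0.000666). Against the resistant control it stood at -1.14 (SE 0.074; edgeR adjusted p = 3.61e-10), or 0.455 times the control mean. In the description of resistant against sensitive control cells its log2 fold change was 0.58 (SE 0.073). TIMP2 shares 198 exonic bases with CEP295NL on the same strand, which had 13 to 68 counts per library. It shares 367 with AC022966.1 on the opposite strand, for which there are no counts, so the reads of that stretch cannot be assigned.

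TIMP1, a soluble inhibitor of most secreted MMPs (gene identifier 7076, chromosome X, 47582436 to 47586789), varied least of the 3. It had 178 and 181 CPM in SR siCOL6A3 + rhETP, 157 and 166 CPM in SR siCOL6A3, 151 and 155 CPM in SR siCtrl and 175 and 192 CPM in SS siCtrl. The endotrophin libraries fell inside the range of the sensitive ones, and the resistant control had the lowest values. It was not called among the resistant groups, where endotrophin with siRNA over the resistant control gave the widest difference, 0.23 (SE 0.088; edgeR adjusted p = 0.0726). That difference passed the threshold in DESeq2 (adjusted p = 0.0279), with halved counts (edgeR adjusted p = 0.0463) and with the stricter filter (edgeR adjusted p = 0.0482).

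**Figure D1:**
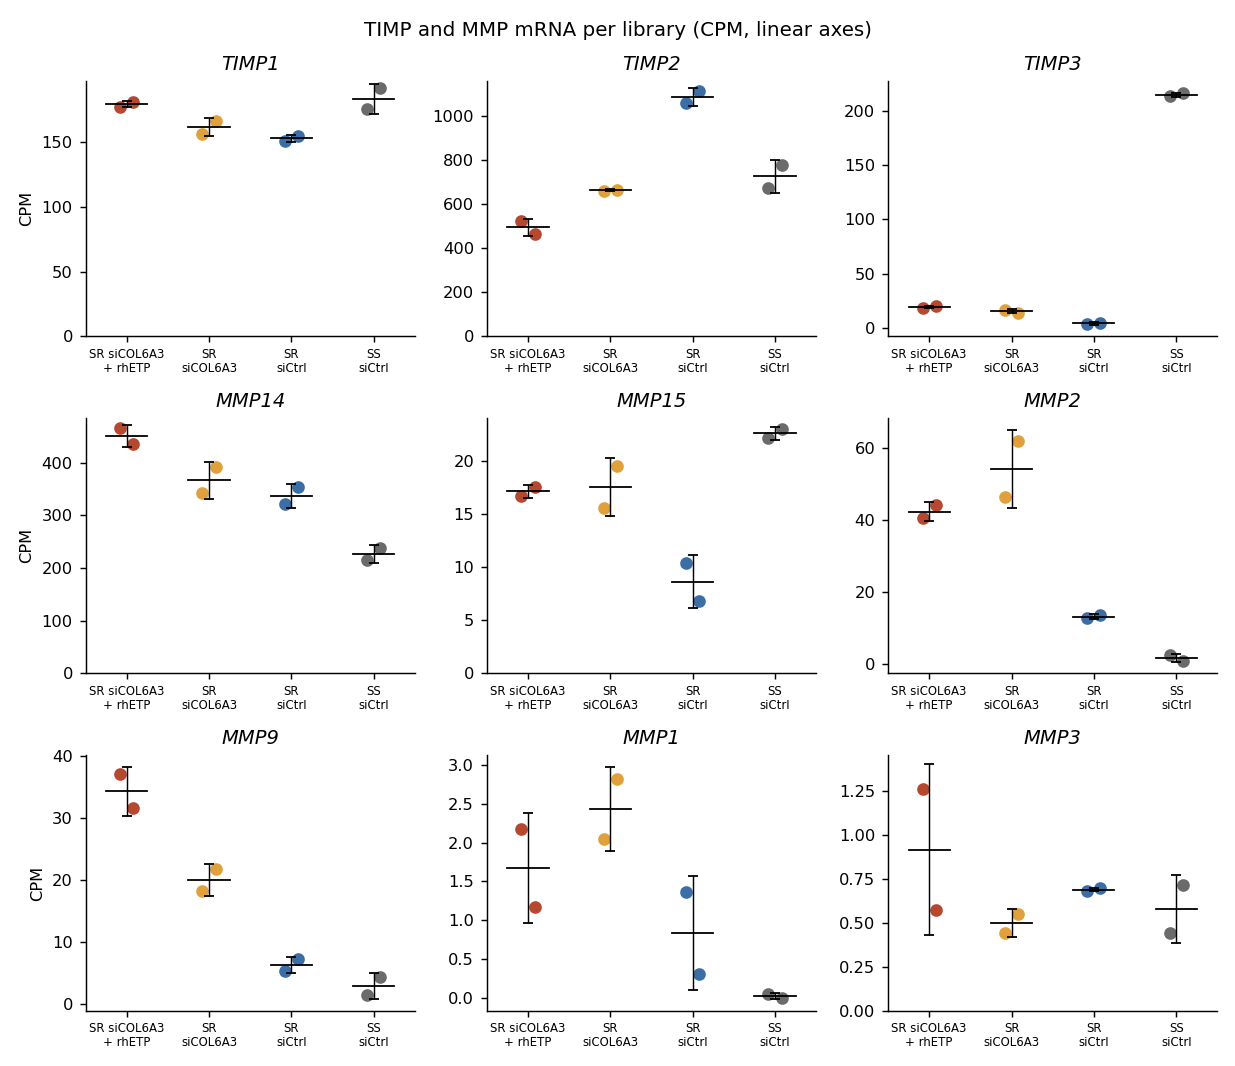
CPM of each TIMP and MMP gene (vertical axes, linear, scaled per gene) in the 4 groups (horizontal axis); points are the 2 libraries of a group, horizontal lines the mean and bars the SD. TIMP3 stood at 213 and 216 CPM in SS siCtrl and at 20.1 CPM or less in every SR library, while MMP2 and MMP9 were lowest in SS siCtrl.

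MMP14, a membrane-anchored collagenase that activates the MMP2 precursor (gene identifier 4323, chromosome 14, 22836585 to 22847758), was the most abundant MMP. It had 466 and 436 CPM in SR siCOL6A3 + rhETP, 342 and 392 CPM in SR siCOL6A3, 321 and 354 CPM in SR siCtrl and 215 and 238 CPM in SS siCtrl. Both endotrophin libraries lay above all others, both sensitive libraries below all others, and the remaining groups overlapped. The siRNA alone gave no call (0.12, SE 0.084; edgeR adjusted p = 0.353). With endotrophin MMP14 was higher than with siRNA alone by 0.30 (SE 0.084; edgeR adjusted p = 0.0317) and higher than the resistant control by 0.42 (SE 0.084; edgeR adjusted p = 0.00104). The first of these calls was lost without SR siCOL6A3 replicate 1 (0.20, edgeR adjusted p = 0.329), without SR siCOL6A3 + rhETP replicate 1 (0.25, edgeR adjusted p = 0.198) and on FPKM, where limma gave adjusted p = 0.17 and 0.173 with pseudocounts of 1 and 0.1.

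MMP15, the other membrane-anchored enzyme (gene identifier 4324, chromosome 16, 58025754 to 58046901), resembled TIMP3 in being lowest in the resistant control and highest in sensitive cells. It had 16.7 and 17.6 CPM in SR siCOL6A3 + rhETP, 15.6 and 19.5 CPM in SR siCOL6A3, 10.4 and 6.86 CPM in SR siCtrl and 22.2 and 23.0 CPM in SS siCtrl. No library of another group reached the range of either control, and the endotrophin libraries lay between those with siRNA alone. MMP15 rose with the siRNA by 1.02 (SE 0.22; edgeR adjusted p = 0.0013) and was 0.99 (SE 0.22) above the resistant control with endotrophin (edgeR adjusted p = 0.0021). Endotrophin over siRNA alone was at -0.04 (SE 0.21; edgeR adjusted p = 0.962). The description of resistant over sensitive control cells gave -1.39 (SE 0.22), against -5.61 for TIMP3.

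MMP2, the gelatinase that cuts denatured collagen and basement-membrane collagen (gene identifier 4313, chromosome 16, 55478830 to 55506691), was scarce in sensitive cells and several-fold higher in all resistant groups. It had 40.4 and 44.1 CPM in SR siCOL6A3 + rhETP, 46.5 and 61.8 CPM in SR siCOL6A3, 12.7 and 13.6 CPM in SR siCtrl and 2.52 and 0.972 CPM in SS siCtrl. No groups overlapped, as was so for 52.0% to 58.3% of all genes in the pairs counted, and the siRNA group was the highest. MMP2 rose 4.11-fold in mean CPM with the siRNA (log2 fold change 2.04, SE 0.22; edgeR adjusted p = 6.99e-07) and stayed 1.68 (SE 0.22) above the resistant control with endotrophin (edgeR adjusted p = 8.72e-06). Endotrophin over siRNA alone was at -0.36 (SE 0.21), not called (edgeR adjusted p = 0.378). The resistant over sensitive log2 fold change was 2.88 (SE 0.27) as a description, or 3.76 and 2.38 without sensitive replicates 1 and 2, which held 92 and 30 counts. MMP2 shares 174 exonic bases with AC007336.3 on the same strand, for which there are no counts.

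MMP9, the second gelatinase (gene identifier 4318, chromosome 20, 46008908 to 46016561), was highest where endotrophin had been added. It had 37.0 and 31.5 CPM in SR siCOL6A3 + rhETP, 18.2 and 21.8 CPM in SR siCOL6A3, 5.38 and 7.27 CPM in SR siCtrl and 1.48 and 4.47 CPM in SS siCtrl. No groups overlapped, as was so for 52.0% to 58.3% of all genes in the pairs counted. The sensitive libraries differed widely from each other. MMP9 rose with the siRNA by 1.66 (SE 0.30; edgeR adjusted p = 0.000299) and with siRNA and endotrophin by 2.44 (SE 0.31; edgeR adjusted p = 4.68e-06). With endotrophin its mean was 5.42 times that of the resistant control. Endotrophin over siRNA alone, a 1.71-fold difference in means, was at 0.78 (SE 0.29) and not called (edgeR adjusted p = 0.108). It was called when only those groups were fitted (edgeR adjusted p = 0.00321), with no filter on low counts (0.00921), and without SS siCtrl replicate 1 (0.00381), SS siCtrl replicate 2 (0.00355) or SR siCtrl replicate 2 (0.0461), libraries outside this comparison that enter the shared estimate of spread. The resistant over sensitive log2 fold change was 1.11 (SE 0.32) as a description, and 0.50 and 2.09 without sensitive replicates 1 and 2. MMP9 shares 430 exonic bases with SLC12A5-AS1 on the opposite strand, which had at most 31 counts in a library; without strand information reads of the shared stretch cannot be told apart.

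The remaining secreted enzymes were near the limit of detection. MMP1, an interstitial collagenase (gene identifier 4312, chromosome 11, 102789919 to 102798160), had 95 and 41 counts in SR siCOL6A3 + rhETP, 65 and 102 counts in SR siCOL6A3, 42 and 10 counts in SR siCtrl and 2 and 0 counts in SS siCtrl. Both sensitive libraries were thus below all resistant ones. With the siRNA MMP1 was at 1.53 (SE 0.98) against the resistant control and was not called (edgeR adjusted p = 0.299). The resistant control libraries themselves were at 1.36 and 0.316 CPM. MMP3, stromelysin-1 (gene identifier 4314, chromosome 11, 102835801 to 102843609), had 55 and 20 counts in SR siCOL6A3 + rhETP, 14 and 20 in SR siCOL6A3, 21 and 22 in SR siCtrl and 16 and 22 in SS siCtrl. No comparison among resistant groups called it, and with SEs of 1.26 to 1.27 on the log2 scale only large differences would have been detectable. MMP1 and MMP3 share 150 and 32 exonic bases with WTAPP1, which had at most 8 counts in a library.

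With the COL6A3 siRNA against control siRNA in resistant cells, 5 of the 9 genes were called (55.6%), 4 higher (TIMP3, MMP2, MMP9 and MMP15) and 1 lower (TIMP2), where 22.3% of all genes tested were called (11.4% higher, 10.9% lower). Their median log2 fold change was 1.02, and that of all genes 0.004. With siRNA and endotrophin against the resistant control, 6 were called (66.7%), 5 higher and 1 lower, against 19.0% of all genes (10.1% higher, 8.93% lower), and the median was 0.99. For endotrophin with siRNA against siRNA alone, 2 were called (22.2%), MMP14 higher and TIMP2 lower, against 7.77% of all genes (4.41% higher, 3.36% lower), and the median was 0.15. These comparisons share libraries with each other and with the description of resistant against sensitive control cells, so they are not separate evidence. The 9 genes were selected on levels that include the resistant control. The 55.6% and 66.7% called against it thus cannot be read against the shares of all genes. In the description of resistant against sensitive control cells, 5 of the 9 genes had a log2 fold change of at least 1 in size, and 18.6% of all genes had. The 9 genes were selected on these same levels, so the first share cannot be read against the second. MMP1, at 4.69 (SE 1.34) on 2 and 0 sensitive counts, also passed the filter through the resistant groups. Its value ran from 3.3 to 7.85 without single libraries and was 0.471 in limma on log2(FPKM + 1). Of all genes, edgeR called 15.8% for resistant over sensitive control cells (6.52% higher, 9.30% lower).

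**Figure D2:**
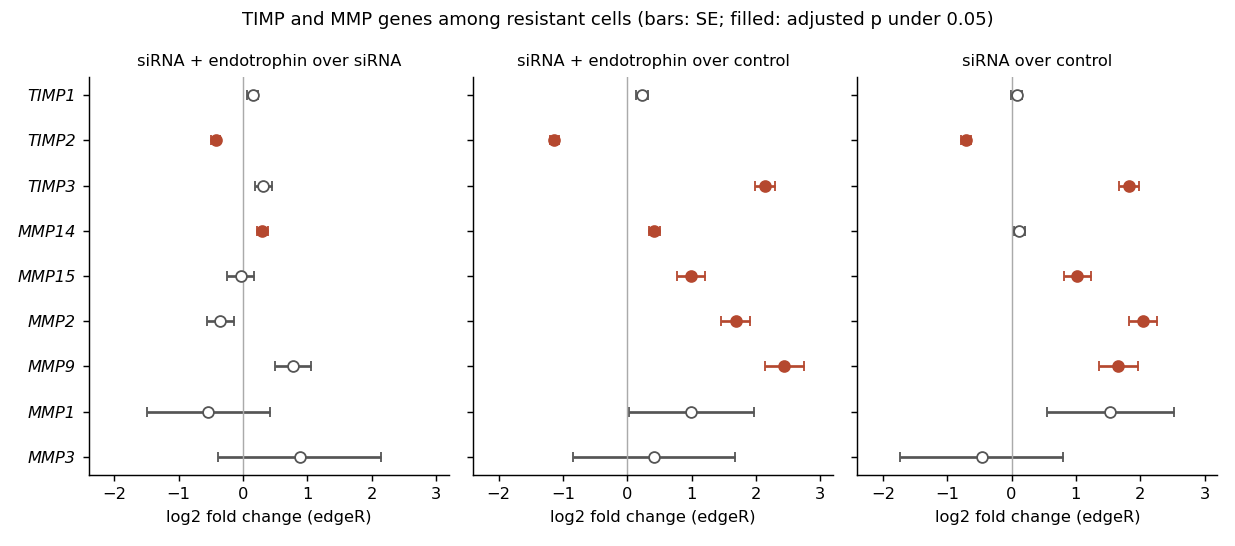
Fitted log2 fold changes (horizontal axes) of the 9 genes (vertical axis) in the 3 comparisons among resistant groups; bars are the SE, and filled points passed edgeR's test at an adjusted p of 0.05. TIMP2 lay at -0.43, -1.14 and -0.71 in the panels from left to right, while TIMP3, MMP15, MMP2 and MMP9 were called higher in the 2 panels against the resistant control.

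Per length, on the authors' FPKM scale, the family was dominated by a few members. TIMP1 averaged 231 ± 2.84 FPKM in SR siCOL6A3 + rhETP, 214 ± 8.03 in SR siCOL6A3, 200.3 ± 2.00 in SR siCtrl and 234 ± 14.1 in SS siCtrl (SD, n = 2 each). TIMP2 averaged 134 ± 10.9, 185 ± 0.0659, 300.2 ± 8.69 and 196 ± 19.8 FPKM in the same groups, so TIMP2 was the more abundant of this pair in the resistant control and TIMP1 in the other groups. TIMP3 made up 7.84% and 8.61% of summed TIMP FPKM in the sensitive libraries and at most 1.00% in any resistant library. MMP14 averaged 121 ± 5.70 FPKM in SR siCOL6A3 + rhETP, 101 ± 9.30 in SR siCOL6A3, 91.9 ± 5.55 in SR siCtrl and 60.2 ± 4.23 in SS siCtrl. It was 77.4% to 91.7% of the summed FPKM of the 6 MMPs in every library. MMP2 and MMP9 together with MMP14 changed that sum: MMP2 was 6.27% and 7.32% of it in SR siCOL6A3 + rhETP, 9.73% and 11.02% in SR siCOL6A3, 3.23% and 3.19% in SR siCtrl and 0.946% and 0.327% in SS siCtrl.

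The sum over the MMPs divided by the sum over the TIMPs was 0.417 and 0.402 in SR siCOL6A3 + rhETP, 0.300 and 0.341 in SR siCOL6A3, 0.197 and 0.205 in SR siCtrl and 0.144 and 0.145 in SS siCtrl. No groups overlapped in this ratio of mRNA levels, which is a description of transcripts and not of protein or enzyme activity. Both sums contributed within resistant cells: the TIMP sum was 374 and 363 FPKM with siRNA and endotrophin, 397 and 408 FPKM with siRNA, and 494 and 509 FPKM in the resistant control. The MMP sum was 156 and 146 FPKM with siRNA and endotrophin, 119 and 139 FPKM with siRNA, and 97.2 and 105 FPKM in the resistant control. In sensitive cells the TIMP sum was 444 and 493 FPKM and the MMP sum 64.0 and 71.2 FPKM.

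**Figure D3:**
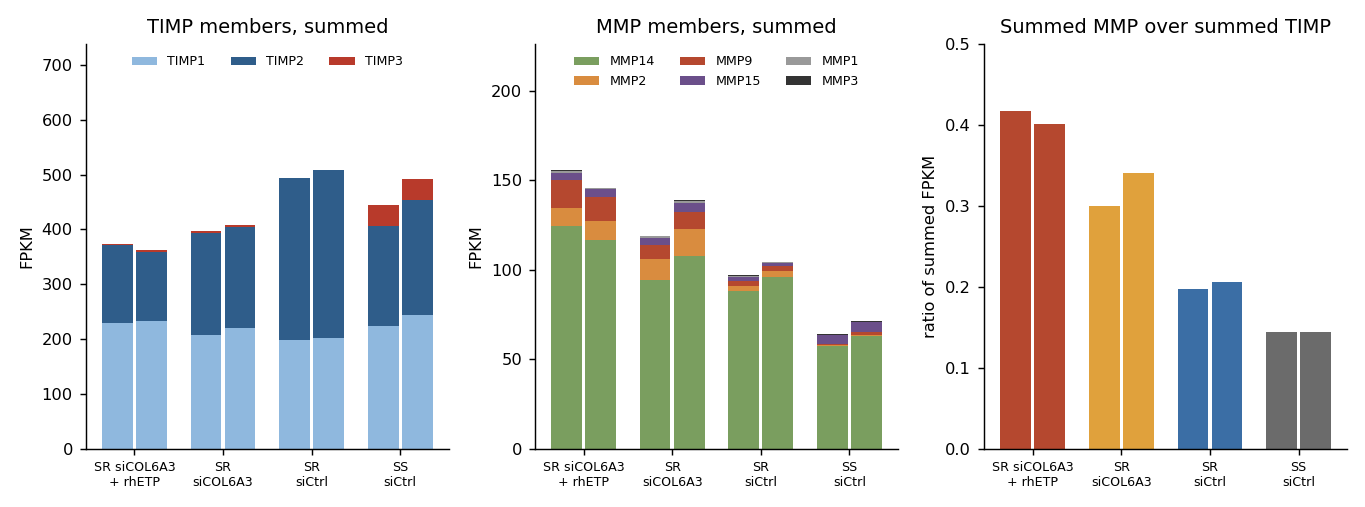
Summed FPKM of the 3 TIMPs (left), of the 6 MMPs (middle) and the ratio of the sums (right) in each library, with groups along the horizontal axes and stacked colours for genes. The ratio ran from 0.417 and 0.402 in SR siCOL6A3 + rhETP to 0.144 and 0.145 in SS siCtrl.

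Other MMPs gave few measurable transcripts: 6 of 17 were tested. With the siRNA against the resistant control 2 were called higher and 4 were not called (33.3% called, against 22.3% of all genes). Those called were MMP24, a membrane-type enzyme (1.22, SE 0.21; edgeR adjusted p = 0.000208), and MMP16, another of that type (0.38, SE 0.11; edgeR adjusted p = 0.012). MMP24 was at 18.4 and 20.3 CPM in SR siCOL6A3 + rhETP, 14.3 and 13.2 CPM in SR siCOL6A3, 4.73 and 7.08 CPM in SR siCtrl and 33.0 and 41.1 CPM in SS siCtrl, the same order of groups as for TIMP3. MMP24 shares 799 exonic bases with MMP24OS on the opposite strand, which had 706 to 1694 counts per library, so its counts are uncertain. MMP17, which is anchored by a lipid, was lower with endotrophin than with siRNA alone (-0.82, SE 0.24; edgeR adjusted p = 0.0365), the 1 call of the 6 there (16.7%, against 7.77% of all genes). Against the resistant control, siRNA with endotrophin gave 2 calls of 6 (33.3%, against 19.0% of all genes), MMP24 higher (1.71, SE 0.21; edgeR adjusted p = 4.14e-06) and MMP17 lower (-0.69, SE 0.24; edgeR adjusted p = 0.0472).

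Of 9 further inhibitors 5 were tested, and 2 were called higher with the siRNA, where 11.4% of all genes were called higher. TFPI2, a matrix-associated inhibitor of serine proteases, was at 4.42 and 3.08 CPM in SR siCOL6A3 + rhETP, 3.18 and 3.48 CPM in SR siCOL6A3, 0.259 and 0.569 CPM in SR siCtrl and 4.22 and 3.27 CPM in SS siCtrl. The resistant control was low and the other groups overlapped. TFPI2 rose by 2.99 (SE 0.60) with the siRNA (edgeR adjusted p = 0.000781) and was the 1 call of the 5 (20%, against 19.0% of all genes) with siRNA and endotrophin against the resistant control (3.17, SE 0.60; edgeR adjusted p = 0.00055). SPOCK1, a matrix proteoglycan of the testican family, rose with the siRNA by 1.38 (SE 0.27; edgeR adjusted p = 0.000607). Endotrophin against siRNA alone called 0 of the 5 in edgeR, with 1 at an unadjusted p under 0.05 and 0 in DESeq2 or limma on FPKM. RECK, a membrane-anchored MMP inhibitor, was not called in these 3 comparisons, and TIMP4 had 0 counts throughout its row and was not tested.

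Among 24 activators and cell-surface partners of MMPs, 16 were tested. The siRNA called 2 higher and 2 lower, or 25%, close to the 22.3% of all genes. They were the integrin subunit ITGAV (0.70, SE 0.093; edgeR adjusted p = 9.9e-06), the endocytic receptor LRP1, which clears MMPs and TIMPs (0.59, SE 0.10; edgeR adjusted p = 0.000185), the plasminogen activator PLAU (-0.72, SE 0.099; edgeR adjusted p = 1.3e-05) and the proprotein convertase FURIN, which activates membrane-type MMPs (-0.67, SE 0.15; edgeR adjusted p = 0.00214). Endotrophin against siRNA alone called 4 higher (25%, against 7.77% of all genes), namely PLAT (1.06, SE 0.083; edgeR adjusted p = 2.85e-08), PLAU (0.97, SE 0.099; edgeR adjusted p = 1.25e-06), CD151 (0.37, SE 0.082; edgeR adjusted p = 0.00521) and BSG, the inducer of MMP expression on neighbouring cells (0.33, SE 0.082; edgeR adjusted p = 0.0126). PLAU was at 164 and 183 CPM in SR siCOL6A3 + rhETP, 94.3 and 82.4 CPM in SR siCOL6A3, 151 and 140 CPM in SR siCtrl and 136 and 135 CPM in SS siCtrl. Against the resistant control, siRNA with endotrophin called 6 higher and 1 lower (43.8%, against 19.0% of all genes). The list medians were 0.02, 0.11 and 0.29 for siRNA over control, endotrophin over siRNA and endotrophin with siRNA over control, where the median of all genes was 0.004, 0.001 and 0.

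A list of 12 genes held ADAM and ADAMTS proteases, several of them known targets of TIMP3, and KDR, the receptor that TIMP3 binds; 8 were tested. ADAM17, the sheddase of TNF, rose with the siRNA (0.63, SE 0.13; edgeR adjusted p = 0.00106), as did ADAM9 (0.31, SE 0.081; edgeR adjusted p = 0.00746), the other 6 not being called, so that the share called was 25% against 22.3% of all genes. With endotrophin against siRNA alone the 2 calls (25%, against 7.77% of all genes) were ADAMTS1, a protease of proteoglycans (0.75, SE 0.078; edgeR adjusted p = 1.81e-06), and ADAM19 (0.70, SE 0.088; edgeR adjusted p = 2.1e-05). These 4 of the 8 were called higher with siRNA and endotrophin than in the resistant control (50%, against 19.0% of all genes), at 0.64 to 0.80 for ADAM17, ADAM19 and ADAMTS1 and 0.46 for ADAM9.

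Of 25 transcription factors known to act on MMP genes, 25 were tested. The siRNA called 5 higher and 4 lower (36%, against 22.3% of all genes), with a list median of 0.06. The largest were EGR1 (-1.82, SE 0.25; edgeR adjusted p = 1.65e-05), the AP-1 subunit FOSL1 (-0.90, SE 0.087; edgeR adjusted p = 1.37e-07), ETS2 (0.75, SE 0.16; edgeR adjusted p = 0.00156) and ETV1 (0.71, SE 0.12; edgeR adjusted p = 0.000149). With endotrophin against siRNA alone 7 were higher and 2 lower (36%, against 7.77% of all genes; list median 0.20), among them FOSB (2.43, SE 0.52; edgeR adjusted p = 0.0044) and EGR1 (1.49, SE 0.25; edgeR adjusted p = 0.000568) higher and JUNB (-0.77, SE 0.20; edgeR adjusted p = 0.0192) and ETV1 (-0.53, SE 0.12; edgeR adjusted p = 0.00726) lower. FOSL1 was at 372 and 421 CPM in SR siCOL6A3 + rhETP, 285 and 329 CPM in SR siCOL6A3, 527 and 616 CPM in SR siCtrl and 520 and 510 CPM in SS siCtrl. The siRNA group had the lowest values, and the resistant and sensitive controls the highest.

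The genes whose pattern over the 8 libraries lay nearest to that of TIMP3, by Euclidean distance of log2 CPM centred on each gene's mean, were SIRPA (1.18), OAS2 (1.34), PAK3 (1.5), GFRA1 (1.62) and C5orf63 (1.63). Their Pearson r with TIMP3 was 0.979, 0.985, 0.983, 0.993 and 0.959 over these 8 libraries, which fall into 4 groups, so that the values describe the group pattern. Ranked by r among genes with an SD of at least 1, 3 of these 5 were again among the first 5, with PDLIM1 (0.996) and P3H2 (0.985) in place of the others. In SR siCtrl, PAK3 had 0 and 6 counts and C5orf63 0 and 4. The low ends of this pair, and so their distances, depend on the count of 2 added before taking logs. SIRPA, a receptor for CD47, was at 3.07 and 2.54 CPM in SR siCOL6A3 + rhETP, 3.53 and 2.46 CPM in SR siCOL6A3, 1.296 and 1.106 CPM in SR siCtrl and 49.0 and 44.9 CPM in SS siCtrl. Like TIMP3 it was lowest in the resistant control and far higher in sensitive cells.

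**Figure D4:**
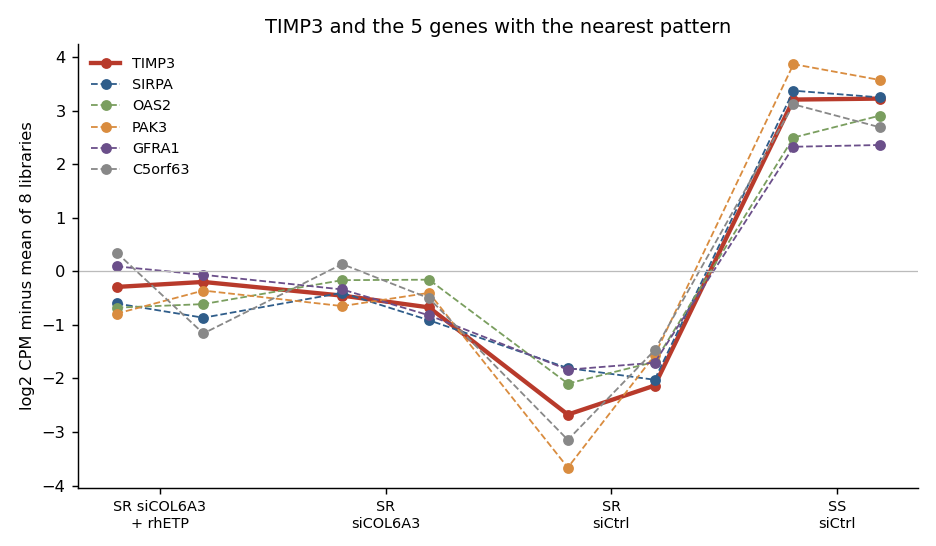
Log2 CPM minus the gene's mean over 8 libraries (vertical axis) for TIMP3 (thick line) and the 5 nearest genes (dashed lines) in each library by group (horizontal axis); lines only join the points of a gene. All 6 genes were highest in the SS siCtrl libraries and lowest in the SR siCtrl libraries, with the siRNA groups between.

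Marker sums differed between some groups. With the siRNA over the resistant control, edgeR called 3 of 6 mesenchymal and 1 of 2 tested hepatocyte markers higher. It called 1 of 2 tested endothelial markers lower and 0 of 4 leukocyte and macrophage markers, against 22.3% of all genes. The median log2 fold change of the 2 endothelial genes was 1.98, so they went opposite ways, and a sum need not describe its list. The summed CPM of 6 mesenchymal markers was 10949 to 11319 in SR siCOL6A3 + rhETP and 10018 to 10499 in SR siCOL6A3. It was 7023 to 7072 in SR siCtrl and 4318 to 4362 in SS siCtrl, the order that the MMP sum also had. Their median log2 fold change was 0.79 for siRNA over control, 0.096 for endotrophin over siRNA alone and 0.20 for resistant over sensitive cells. Of the 6, edgeR called 3, 1 and 2 there, so this sum too need not describe each gene. The sum of 7 hepatocyte markers, of which 2 were tested and 3 had 0 counts throughout, was 45.4 to 48.8 CPM in SR siCOL6A3 + rhETP, 36.0 to 36.6 CPM in SR siCOL6A3, 17.8 to 29.7 CPM in SR siCtrl and 15.7 to 18.7 CPM in SS siCtrl. The sum of 7 endothelial markers, of which 2 were tested, was 61.4 to 64.0 CPM in SR siCOL6A3 + rhETP, 58.7 to 65.8 CPM in SR siCOL6A3, 95.005 to 96.1 CPM in SR siCtrl and 105.86 to 106.48 CPM in SS siCtrl. The sum of 7 leukocyte and macrophage markers, of which 4 were tested and CD3E had 0 counts throughout, was 107.85 to 108.28 CPM in SR siCOL6A3 + rhETP, 94.6 to 111 CPM in SR siCOL6A3, 106 to 114 CPM in SR siCtrl and 93.2 to 94.9 CPM in SS siCtrl. The part of these shifts in the MMP and TIMP values was not tested.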

How the data were processed

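The authors deposited counts per gene for 8 libraries, not normalized, and a second table of FPKM. Over 13505 genes with counts in every library, the deposited FPKM equalled the count divided by 1 gene length and the library total, within a relative spread of 1.57e-15. The genome build GRCh38 is named in the submitters' processing notes; the sources used here name no aligner, counter or strandedness. In R 4.3.3, edgeR 4.0.16 kept 15684 genes by filterByExpr (minimum count 10), scaled by TMM (0.981 to 1.02) and fitted 1 quasi-likelihood model to the 4 groups of 2 (4 residual degrees of freedom; common biological coefficient of variation 0.220). Tests were 2-sided, with Benjamini-Hochberg adjustment over all genes. Alternatives were DESeq2 1.42.0 and its size factors, limma 3.58.1 on log2(FPKM + 1) and log2(FPKM + 0.1), other filters, halved counts, 2-group fits, a replicate block and leaving out each library. Replicates of a group differed beyond counting noise (chi-square per degree of freedom 15.0 to 18.4); the labels call them biological replicates in 1 batch, and p-values measure the spread between these samples. Named genes were the 9 members, COL6A3, up to 4 called genes with the largest change per list and comparison, and the 5 nearest patterns. The members and lists were chosen with earlier results of these data known. Positions and promoters come from RefSeq GRCh38.p14, strands and overlaps from GENCODE 29.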

Additional observations from a re-analysis of the deposited data

How the results depend on the processing

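Of the 9 genes, 5 were called with the COL6A3 siRNA against the resistant control under all alternatives listed in the methods, and 6 to 7 with siRNA and endotrophin against that control. For endotrophin against siRNA alone, 2 were called, 1 with limma on FPKM at either pseudocount, and 1 to 3 without single libraries. All genes called there numbered 1218, but 494 and 490 with limma on log2(FPKM + 1) and log2(FPKM + 0.1), and 651 to 1637 without single libraries. Against the resistant control, siRNA with endotrophin called 2981 genes, or 1972 to 3513 without single libraries. In resistant over sensitive cells, 5 members passed a log2 fold change of 1 in size, against 3 on log2(FPKM + 1), 4 with only the 2 groups compared, where MMP1 did not pass the filter, and 4 to 5 without single libraries (4 without SS siCtrl replicate 1, where MMP9 was at 0.501, or SR siCtrl replicate 2, where it was at 0.886); 2480 genes were called, or 1538 without SR siCtrl replicate 1 and SS siCtrl replicate 2, a pair left out after the data were seen; without them MMP1 rose with the siRNA (2.93, edgeR adjusted p = 0.0383). Signs turned without single libraries for MMP15 with endotrophin over siRNA (-0.192 to 0.124), for MMP3 with endotrophin and siRNA over the resistant control (-0.265 to 0.87) and for MMP3 in resistant over sensitive cells (-0.0502 to 0.646). The cause was not tested. Where 1 library remained in a group, its spread was taken from the others.

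Replicate numbers are shared between groups. Over all genes, deviations of same-numbered libraries correlated at -0.0271 to 0.0329 in the pairs of groups compared. Whether same-numbered libraries were handled together was not tested. With the replicate block the counts of genes called were 3618, 1368, 3113 and 2606 for siRNA over control, endotrophin over siRNA, both over control, and resistant over sensitive. Without the block they were 3505, 1218, 2981 and 2480. With it, MMP9 was called with endotrophin over siRNA (0.811, edgeR adjusted p = 0.0381). The counts of MMP1 and MMP3 did not exceed 102 in any library. With halved counts they were again not called with the siRNA over control (edgeR adjusted p = 0.218 and 0.81).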
